A study of Mus musculus with 24 samples.

Results

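The amino acid response and integrated stress response genes examined here were 34 genes, chosen by symbol from the pathway: 4 transcription factors, 8 feedback and stress effectors, 6 enzymes of serine, one-carbon and asparagine synthesis, 4 amino acid transporters and 12 cytosolic aminoacyl-tRNA synthetases. All 34 were among the 23337 gene symbols of the total RNA files, and 33 had at least 1 ribosome footprint in some culture. Of the 34, 20 had a footprint in every culture; Stc2, a secreted glycoprotein hormone gene, had none.

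The samples were bone-marrow-derived macrophages, cells grown out of mouse marrow in M-CSF, the growth factor of the macrophage lineage. Marrow came from C57BL/6J mice aged 6 to 12 weeks, either Apobec1-/- (KO) or wild type (WT), where APOBEC1 is a cytidine deaminase that edits mRNA. Cultures were kept for 7 days in DMEM with non-essential amino acids and 20 ng/mL M-CSF, part of the medium being replaced every 3 days by medium with 40 ng/mL M-CSF, in both genotypes. The 6 KO and 6 WT cultures each gave 1 library of ribosome-protected fragments (footprints) and 1 of total RNA, and the labels place them in 3 batches: KO5, KO6, WT5 and WT6 in batch 3, KO2 to KO4 and WT4 in batch 2, and KO1 and WT1 to WT3 in batch 1. The part of Apobec1 that the KO allele lacks is not given in the sources used here; whether cultures of a genotype were from different mice is not in the labels, so the p-values describe the spread between these cultures, which may be technical. What distinguished the batches is not given in the sources used here.

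In the integrated stress response, kinases such as GCN2, which senses uncharged tRNA, and PERK phosphorylate the initiation factor eIF2, which lowers translation of most mRNAs. The mRNA of the transcription factor ATF4 carries upstream open reading frames, short frames ahead of the coding sequence that keep ribosomes from the ATF4 frame until eIF2 is phosphorylated. ATF4 then drives genes for amino acid synthesis, amino acid uptake and tRNA charging, and feedback genes such as Ppp1r15a, whose product GADD34 helps to dephosphorylate eIF2. In macrophages these genes are known to respond to amino acid supply and to stress of the endoplasmic reticulum.

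ATF4 binds with C/EBP proteins to C/EBP-ATF response elements, and the letters TGATGNAA of that element were looked for on both strands of RefSeq promoter windows (GRCm38.p6, the assembly that mm10 names), each running from 250 bases before to 50 bases after an annotated start. A window was at hand for 29 of the 34 members, and 11 of these genes held the letters at least once, against 4.51% of all 27025 genes with a window and 3.97% of all 32851 windows. The members were Aars, Asns, Chac1, Gars, Iars, Nupr1, Slc7a11, Tars, Trib3, Vldlr and Yars. The stretches below lie before the start of genes whose values are described in the following paragraphs. Matches before the start of Aars, at -112, and of Vldlr, at -200, are not shown. Each stretch is 30 bases on the gene's own strand, and the capitals mark the matched letters. A match is a description of the sequence, not of binding.
Asns, chr6:7693214-7693243, minus strand: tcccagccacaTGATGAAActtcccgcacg
Chac1, chr2:119351038-119351067, plus strand: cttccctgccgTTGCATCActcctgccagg
Gars, chr6:55037960-55037989, plus strand: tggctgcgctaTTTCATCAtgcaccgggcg
Tars, chr15:11399659-11399688, minus strand: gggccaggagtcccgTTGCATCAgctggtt
Nupr1, chr7:126625562-126625591, minus strand: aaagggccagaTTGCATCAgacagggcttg
Slc7a11, chr3:50443661-50443690, minus strand: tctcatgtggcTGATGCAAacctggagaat
The match of Asns began at position -23 from the start, that of Gars at -30, that of Tars at -15, that of Nupr1 at -110 and that of Chac1 at -193. The Slc7a11 window belongs to a start inside the gene's annotated span and held the letters at -66 and again, on the opposite strand, at -47. In Asns and at -66 of Slc7a11 the letters ran along the gene's strand, and in the other 4 genes shown along the opposite one.

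Counts in genes were 5077478 to 12059361 per total RNA library and 29561 to 3714912 per footprint library. Footprint depth was lowest in batch 3, with 29561 to 223504 counts, against 955199 to 3714912 in batch 2 and 325979 to 1996862 in batch 1. Levels are given in CPM, counts per 1000000 after TMM scaling of library sizes, and 3 footprint counts corresponded to 14.0 to 82.2 CPM in batch 3, 0.840 to 3.20 CPM in batch 2 and 1.56 to 9.89 CPM in batch 1. As a check of the labels, the Apobec1 ratio of footprint CPM to total RNA CPM was at most 0.0215 in the 6 KO cultures, against 0.151 to 0.292 in the 6 WT cultures, while Apobec1 total RNA was 605, 1086 and 1278 CPM (lowest, median and highest) in KO and 313, 387 and 475 CPM in WT cultures. Apobec1 RNA was thus present and higher in KO cultures, and only its footprints per RNA were low. Summed RNA of 9 macrophage markers was 15352 to 25212 CPM in batch 3, 27702 to 49181 CPM in batch 2 and 21665 to 28886 CPM in batch 1, and all 5 lymphocyte and all 4 erythroid markers had at most 3 counts in every library. Summed RNA of 12 neutrophil markers was 442 to 591 CPM in batch 3, 153 to 591 CPM in batch 2 and 57.6 to 67.0 CPM in batch 1. The upper end of batch 2 was WT4 alone in both sums. KO2 to KO4 were at 153 to 199 CPM for the neutrophil markers and at 27702 to 32093 CPM for the macrophage markers. Summed RNA of 4 osteoclast markers was also highest in WT4, at 100 CPM, against 12.0 to 46.1 CPM in the other cultures. Their summed footprints were 133 CPM in WT4 and 0 to 55.9 CPM in the others. In bulk samples, fewer cells of a type and less RNA per cell cannot be told apart.

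The test of each comparison was edgeR's quasi-likelihood test with Benjamini-Hochberg adjustment over all genes tested and a threshold of 0.05, and a gene is called when its adjusted p is below it. After a filter on low counts, 33 of the 34 members were tested in total RNA, Stc2 being left out, and 21 in footprints. The 21 were Atf4, Sesn2, Asns, Psat1, Phgdh, Shmt2, Mthfd2, Slc7a1, Slc3a2 and the 12 synthetases. Among the 13 others were Atf5, Ddit3, Nupr1, Trib3, Ppp1r15a, Chac1 and Slc7a11, which are described by their counts.

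The first comparison asked whether loss of APOBEC1 was accompanied by a change in this pathway. No member was called between KO and WT cultures in total RNA (33 tested), in footprints (21) or in the footprint to RNA ratio (21), where 0.0183%, 0.0832% and 0.0139% of all genes were called. No member had an unadjusted p below the threshold in any of the 3 tests, and DESeq2 also called none. The median log2 change of members, KO over WT, was -0.06 in total RNA, -0.07 in footprints and -0.05 in the ratio, and that over all genes tested was -0.0016, 0.015 and -0.00066. No member's total RNA separated the 6 KO from the 6 WT cultures, where 0.0548% of all genes had every KO culture above and 0.0731% every KO culture below.

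Atf4 total RNA was 111, 122 and 295 CPM (lowest, median and highest) in KO and 124, 130 and 261 CPM in WT cultures, and the ranges overlapped. The interval of its KO over WT change was narrow in total RNA, as the plot of genotype differences shows, and wider in footprints, where the change of -0.17 rested on 457 footprints in all. Asns, which makes asparagine, had 9.13, 19.9 and 107 CPM in KO and 19.4, 33.9 and 91.0 CPM in WT cultures. Trib3, a pseudokinase that restrains ATF4, had 1.83, 3.29 and 13.7 CPM in KO and 3.56, 8.68 and 12.7 CPM in WT cultures, with a log2 change of -0.68 (SE 0.32, 95% interval -1.36 to 0.01, adjusted p = 0.859 by edgeR). Slc7a11, the cystine importer, had the widest interval, from -2.59 to 0.11 around -1.24, and a single WT culture, WT4, held 157 CPM against 13.3 to 30.9 CPM in the other 5 WT cultures.

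**Figure D1:**
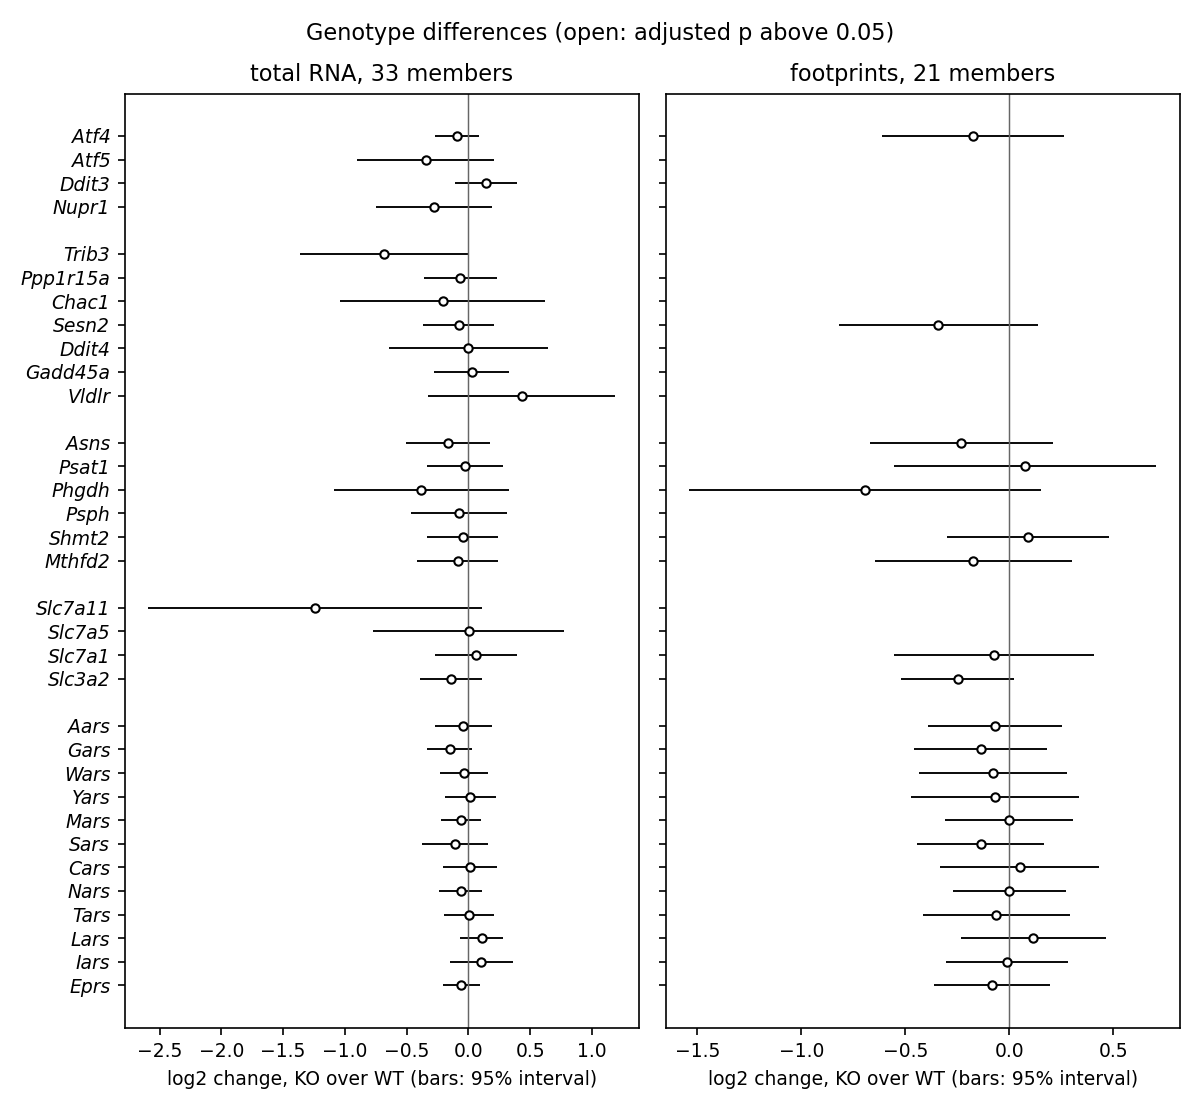
Log2 change of each tested member, KO over WT cultures, with 95% intervals, in total RNA (left, 33 members) and footprints (right, 21 members), grouped by role. Every interval includes 0, that of Trib3 total RNA ending at 0.01.

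The batches held unequal numbers of KO and WT cultures, so the difference was also taken within each batch, from mean log2 CPM. In total RNA the KO minus WT difference was positive for 30 and negative for 3 of 33 members in batch 3, positive for 5 and negative for 28 in batch 2, and positive for 10 and negative for 23 in batch 1, with medians of 0.19, -0.36 and -0.06. In footprints, 17 of 21 were positive in batch 3, 5 in batch 2 and 9 in batch 1. Batch 2 had a single WT culture and batch 1 a single KO culture, so those values rest on WT4 and KO1. The batch 3 footprint values rest on thin libraries, down to 29561 counts in genes in WT6, where 1 footprint was 27.4 CPM. The effect of this depth on the signs was not tested. A test of the genotype by batch interaction, added after these values were seen, called 1 of 33 members in total RNA, where 0.987% of all genes were called, and none of 21 in footprints, where 2.01% were. The member was Atf5, a factor related to ATF4, with an adjusted p of 0.00898 (edgeR). Atf5 total RNA was 23.1 and 28.4 CPM in the KO and 22.8 and 21.3 CPM in the WT cultures of batch 3, and 23.2 CPM in KO1 against 17.6, 19.7 and 21.6 CPM in the WT cultures of batch 1. In batch 2 it was 17.3, 19.5 and 16.0 CPM in the KO cultures and 51.2 CPM in WT4, so the opposite direction in batch 2 is that of 1 WT culture.

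The second set of comparisons asked how far the members moved with the culture batch, with genotype in the model. In batch 3, genes of serine, one-carbon and asparagine synthesis, Atf4, Trib3, Chac1, 2 transporters and many synthetases were higher than in both other batches, while Ddit3 and Vldlr were lower. Against batch 1, 22 of 33 members were called in total RNA, 19 higher and 3 lower, where 45.3% of all genes were called (23.0% higher, 22.3% lower). Against batch 2, 28 were called, 23 higher and 5 lower, where 49.2% of all genes were called (24.7% higher, 24.5% lower). The median member was 0.52 higher than in batch 1 and 0.65 higher than in batch 2 on the log2 scale, against 0.01 over all genes in each comparison. These comparisons share the batch 3 cultures. Higher in batch 3 than in both others were 17 members, and lower than in both were 2; of all genes, 15.4% were higher and 14.6% lower than in both. Each of these 19 members had the same direction within the KO cultures and within the WT cultures. They were selected on these same cultures, so this agreement was largely set by the selection and is no separate support. In 17 of 33 members the 4 batch 3 cultures all lay above the other 8, which held for 13.1% of all genes, and in 1, Vldlr, all lay below, which also held for 13.1%.

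**Figure D2:**
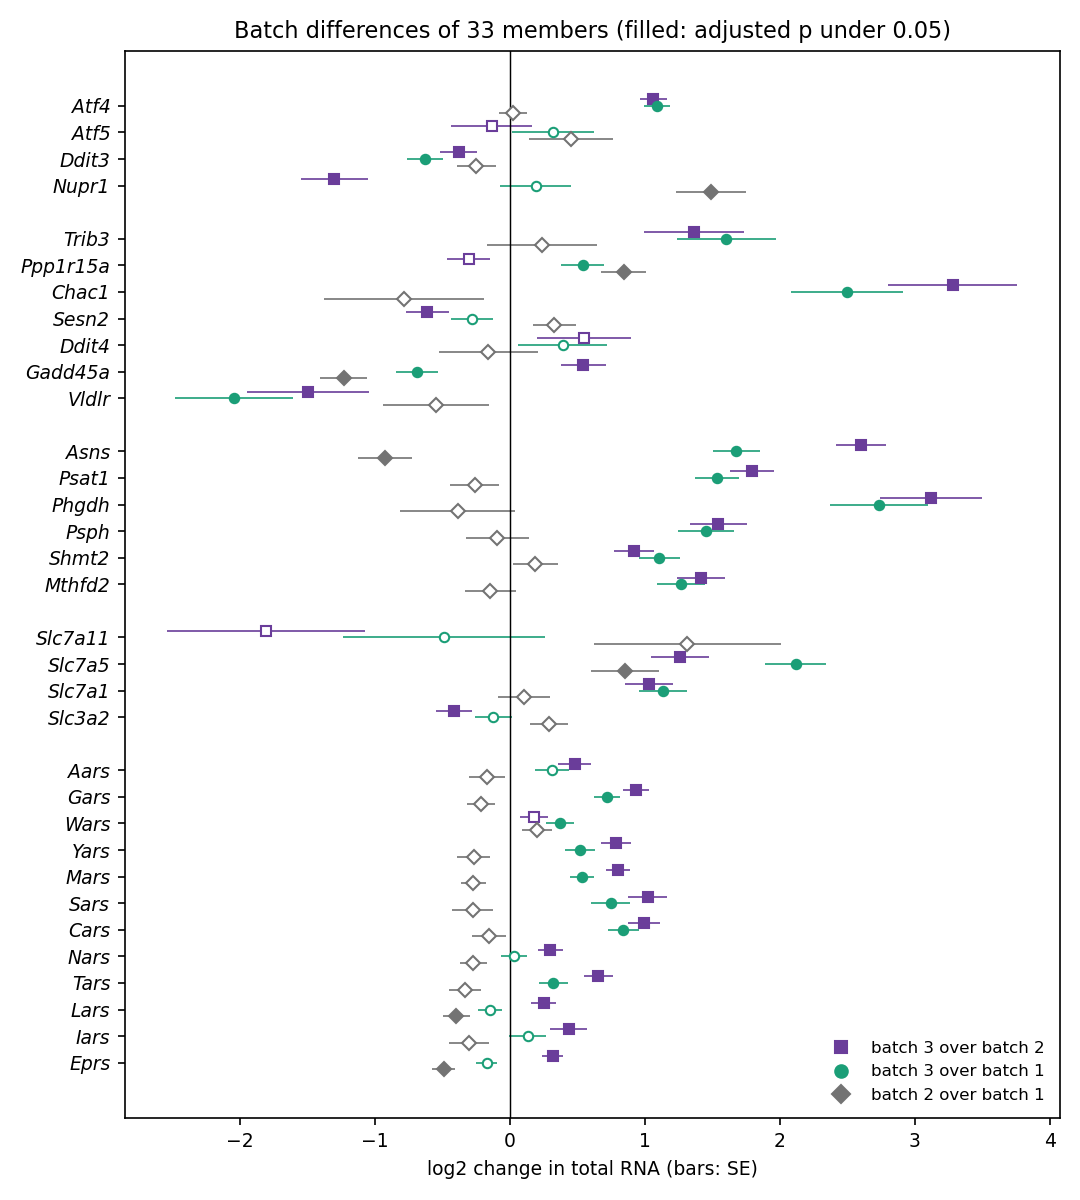
Log2 change of total RNA for 33 members between batches (squares, batch 3 over batch 2; circles, batch 3 over batch 1; diamonds, batch 2 over batch 1), with SE bars and filled symbols where the adjusted p was under 0.05. The 6 genes of serine, one-carbon and asparagine synthesis lie right of 0 in both comparisons of batch 3, from 0.92 to 3.12, while Ddit3 and Vldlr lie left of 0 in both.

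All 6 synthesis genes were called higher in batch 3 in both comparisons. Phgdh (chr3:98313171-98339969), the first enzyme of serine synthesis from a glycolytic intermediate, had 94.0 and 90.8 CPM in KO5 and KO6 and 102 and 78.6 CPM in WT5 and WT6. In batch 2 it had 3.60, 16.9 and 4.46 CPM in KO2 to KO4 and 15.7 CPM in WT4, and in batch 1 10.3 CPM in KO1 and 19.1, 15.5 and 14.7 CPM in WT1 to WT3. Every batch 3 culture was above every other culture, and the change was 3.12 against batch 2 (SE 0.38, adjusted p = 0.000101) and 2.73 against batch 1 (SE 0.36, adjusted p = 0.000183, edgeR).

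Asns (chr6:7675165-7693209), asparagine synthetase, had 107 and 96.3 CPM in the KO and 91.0 and 81.7 CPM in the WT cultures of batch 3. It had 14.9, 16.9 and 9.13 CPM in the KO cultures and 19.4 CPM in the WT culture of batch 2, and 22.9 CPM in the KO culture and 33.4, 34.4 and 31.4 CPM in the WT cultures of batch 1. The 3 batches did not overlap: batch 2 lay below batch 1 and batch 3 above both. The log2 changes were 2.60 for batch 3 over batch 2 (SE 0.18, adjusted p = 3.92e-07), 1.68 for batch 3 over batch 1 (SE 0.18, adjusted p = 1.05e-05) and -0.92 for batch 2 over batch 1 (SE 0.20, adjusted p = 0.00661, edgeR).

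Psat1, the aminotransferase that follows PHGDH, had 92.3 and 66.9 CPM in the KO and 64.5 and 67.9 CPM in the WT cultures of batch 3. It had 19.2, 21.6 and 22.9 CPM in the KO cultures and 20.2 CPM in the WT culture of batch 2, and 17.9 CPM in the KO culture and 28.7, 28.8 and 25.7 CPM in the WT cultures of batch 1, a change of 1.79 against batch 2 and 1.53 against batch 1. Psph, the phosphatase that completes serine synthesis, averaged 22.5 ± 4.0 CPM in batch 3, 7.64 ± 3.0 in batch 2 and 8.40 ± 0.58 in batch 1 (SD, n = 4 each). The mitochondrial one-carbon enzymes were also highest in batch 3: Shmt2, which splits serine into glycine and a one-carbon unit, averaged 47.5 ± 6.3, 25.0 ± 2.2 and 22.2 ± 4.4 CPM in batches 3, 2 and 1, and Mthfd2, which oxidizes that unit, 115 ± 15, 42.9 ± 13 and 48.9 ± 4.0 CPM. Batches 2 and 1 were not distinguished by the test for any of the 6 except Asns.

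**Figure D3:**
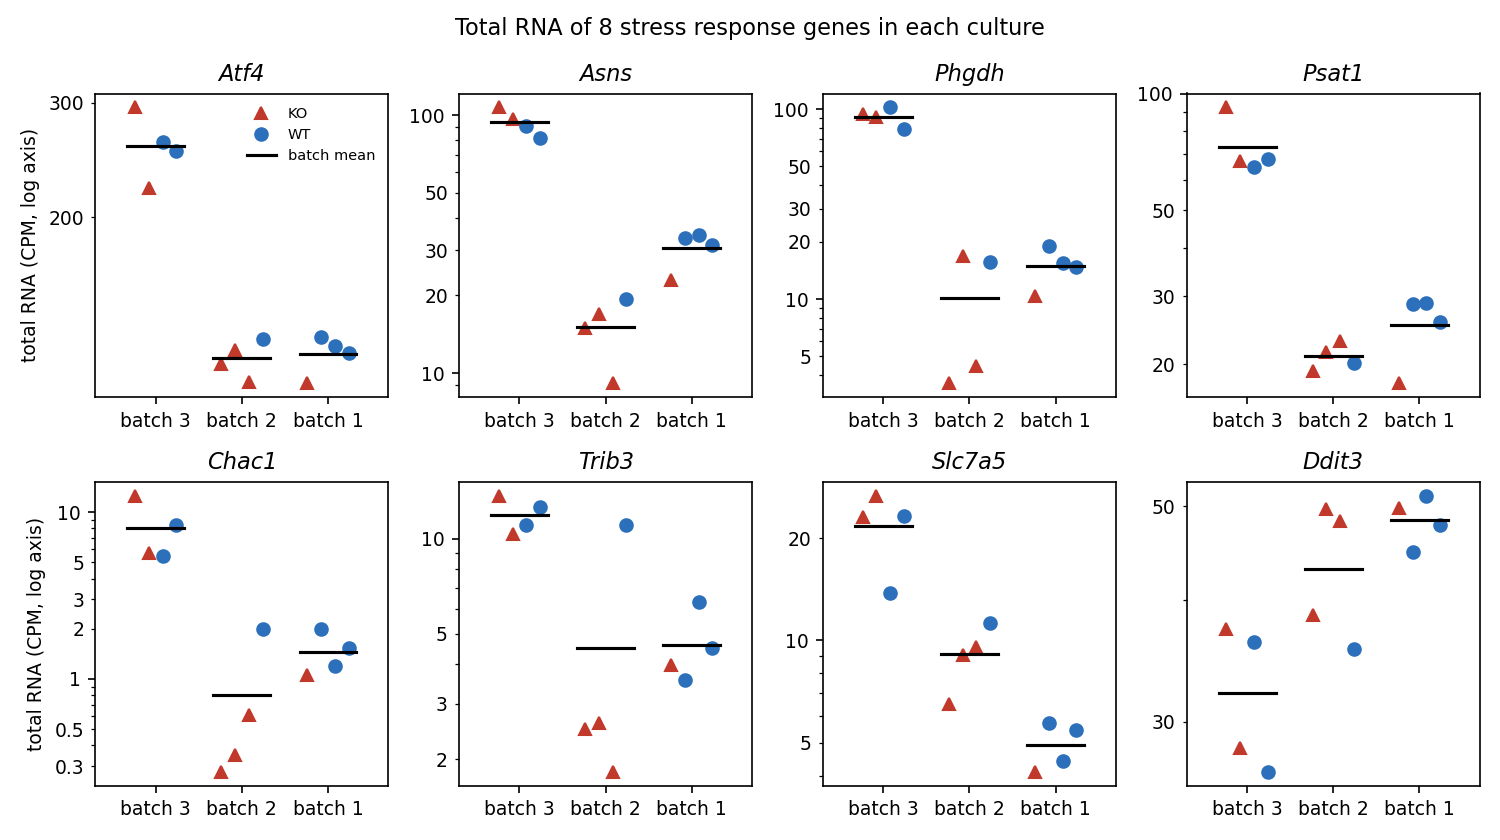
Total RNA of 8 members in each culture (CPM, log axes), by batch, with triangles for KO, circles for WT and a line for the batch mean. In Atf4, Asns, Phgdh, Psat1, Chac1 and Slc7a5 the 4 batch 3 cultures are above the other 8; in Trib3, WT4 of batch 2 is at 11.1 CPM, within the batch 3 range of 10.3 to 13.7 CPM; in Ddit3, batch 3 overlaps batch 2 and lies below batch 1.

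Among the transcription factors, Atf4 (chr15:80255184-80257545) had 295 and 222 CPM in KO5 and KO6 and 261 and 253 CPM in WT5 and WT6. In batch 2 it had 119, 125 and 112 CPM in the KO cultures and 130 CPM in WT4, and in batch 1 111 CPM in KO1 and 131, 127 and 124 CPM in the WT cultures. Batches 2 and 1 overlapped almost fully and batch 3 stood apart, by 1.06 on the log2 scale from batch 2 (SE 0.10, adjusted p = 2.19e-06) and 1.09 from batch 1 (SE 0.10, adjusted p = 2.04e-06, edgeR), a 2.09-fold and a 2.13-fold level.

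Ddit3 (chr10:127290793-127296291), which encodes CHOP, a factor induced by ATF4 in prolonged stress, had 37.4 and 28.2 CPM in the KO and 36.3 and 26.7 CPM in the WT cultures of batch 3. It had 38.6, 49.6 and 48.3 CPM in the KO cultures and 35.6 CPM in the WT culture of batch 2, and 49.8 CPM in the KO culture and 44.8, 51.2 and 47.8 CPM in the WT cultures of batch 1. Batch 3 lay below batch 1 without overlap and overlapped batch 2; the changes were -0.63 against batch 1 (SE 0.13, adjusted p = 0.00178) and -0.38 against batch 2 (SE 0.14, adjusted p = 0.032). Ddit3 was thus lower in the batch in which Atf4 was higher. The annotated spans of Ddit3 and Mars overlap by 71 bases, and how reads in them were counted is not given in the sources used here.

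Atf5 was not called in any comparison of batches. Nupr1, a small stress-induced chromatin protein, was higher in batch 2 than elsewhere: it had 12.2, 19.0 and 9.33 CPM in the KO cultures and 23.2 CPM in the WT culture of batch 2. It had 6.63 and 6.23 CPM in the KO and 8.01 and 5.96 CPM in the WT cultures of batch 3, and 6.75 CPM in the KO culture and 4.80, 7.88 and 5.54 CPM in the WT cultures of batch 1. Batch 2 lay above both others, by 1.49 against batch 1 (SE 0.26, adjusted p = 0.00191), and batch 3 was at -1.30 against batch 2 (SE 0.25, adjusted p = 0.000897, edgeR).

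The feedback and stress effectors split. Chac1 (chr2:119351242-119354326), a glutathione-degrading enzyme and ATF4 target, had 12.6 and 5.70 CPM in the KO and 5.44 and 8.34 CPM in the WT cultures of batch 3. In batch 2 it had 0.277, 0.348 and 0.609 CPM in the KO cultures, from 2, 2 and 3 counts, and 1.99 CPM in WT4, and in batch 1 1.06 CPM in the KO culture and 1.99, 1.19 and 1.53 CPM in the WT cultures. The change was 3.28 against batch 2 (SE 0.48, adjusted p = 0.00012) and 2.50 against batch 1 (SE 0.41, adjusted p = 0.000327). Against batch 2 it was 2.77 without KO5 and 4.37 without WT4. Trib3 averaged 11.9 ± 1.5, 4.51 ± 4.4 and 4.60 ± 1.2 CPM in batches 3, 2 and 1 and was called higher in batch 3 in both comparisons.

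Ppp1r15a, the eIF2 phosphatase subunit, had 21.6 and 15.1 CPM in the KO and 15.0 and 20.4 CPM in the WT cultures of batch 3. It had 17.9, 24.2 and 20.3 CPM in the KO cultures and 26.0 CPM in the WT culture of batch 2, and 13.0 CPM in the KO culture and 12.8, 11.5 and 12.9 CPM in the WT cultures of batch 1. Batches 3 and 2 both lay above batch 1, by 0.54 (SE 0.16, adjusted p = 0.0137) and 0.84 (SE 0.17, adjusted p = 0.00385). The test did not separate batch 3 from batch 2, at -0.31 (95% interval -0.64 to 0.03).

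Gadd45a, a growth arrest gene, ran the other way, with 17.9 and 18.8 CPM in the KO and 20.9 and 15.9 CPM in the WT cultures of batch 3. It had 9.13, 15.5 and 15.2 CPM in the KO cultures and 11.3 CPM in the WT culture of batch 2, and 28.2 CPM in the KO culture and 32.9, 27.7 and 28.9 CPM in the WT cultures of batch 1. It was lower in both other batches than in batch 1, at -0.69 in batch 3 (SE 0.16, adjusted p = 0.00276) and -1.23 in batch 2 (SE 0.17, adjusted p = 0.00058), and 0.54 higher in batch 3 than in batch 2 (adjusted p = 0.0155, edgeR), a call lost without WT4 (adjusted p = 0.059). Vldlr, a lipoprotein receptor that ATF4 can induce, averaged 1.79 ± 1.2, 5.24 ± 1.8 and 7.01 ± 3.0 CPM in batches 3, 2 and 1 and was called lower in batch 3 in both comparisons. Sesn2, a leucine sensor, averaged 20.0 ± 2.9, 30.3 ± 6.8 and 24.7 ± 2.5 CPM and was called only for batch 3 against batch 2, at -0.61. Ddit4, an inhibitor of TORC1, was at 1.25 to 5.21 CPM throughout and was not called, and Stc2 had at most 8 counts in any library.

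Of the 4 transporters, Slc7a5 and Slc7a1 were called higher in batch 3 in both comparisons. Slc7a5, the leucine exchanger LAT1, had 23.0 and 26.6 CPM in the KO and 13.8 and 23.2 CPM in the WT cultures of batch 3. It had 6.51, 9.06 and 9.54 CPM in the KO cultures and 11.3 CPM in the WT culture of batch 2, and 4.10 CPM in the KO culture and 5.72, 4.42 and 5.46 CPM in the WT cultures of batch 1. The 3 batches were in order without overlap, at 2.12 for batch 3 over batch 1 (SE 0.23, adjusted p = 9.63e-06) and 1.26 for batch 3 over batch 2 (SE 0.22, adjusted p = 0.000377); the 0.86 of batch 2 over batch 1 (adjusted p = 0.0268, edgeR) lost its call without KO1, WT2 or WT4. Slc7a1, the cationic amino acid importer, averaged 64.0 ± 15 CPM in batch 3, 31.5 ± 5.8 in batch 2 and 28.7 ± 1.1 in batch 1. Slc3a2, the heavy chain that carries SLC7A5 and SLC7A11 to the membrane, averaged 95.2 ± 11, 125 ± 28 and 107 ± 5.6 CPM and was called only for batch 3 against batch 2, at -0.41.

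Slc7a11 was not called between batches, and its spread rests on WT4. That library held 157 CPM, against 12.9, 34.3 and 6.09 CPM in KO2 to KO4 of the same batch, 11.7 and 13.4 CPM in the KO and 16.2 and 13.3 CPM in the WT cultures of batch 3, and 23.6 CPM in the KO culture and 15.9, 30.9 and 23.4 CPM in the WT cultures of batch 1. The footprint library of WT4 held 250 Slc7a11 footprints, and no other held more than 13, so both libraries of that culture were high.

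The 12 synthetases, which charge tRNAs, moved less. Against batch 1, 7 were called higher in batch 3 and none lower, where 23.0% of all genes were higher and 22.3% lower. Against batch 2, 11 were called higher, where 24.7% of all genes were. The median changes were 0.35 and 0.57. Sars and Cars, for serine and cysteine, changed most: Sars averaged 219 ± 29, 106 ± 24 and 133 ± 7.7 CPM in batches 3, 2 and 1, and Cars 64.4 ± 7.2, 32.4 ± 4.5 and 35.9 ± 2.3 CPM. Gars, for glycine, averaged 156 ± 5.7, 80.2 ± 14 and 97.4 ± 3.9 CPM. Mars, for methionine, had 97.2 and 86.4 CPM in the KO and 88.4 and 87.7 CPM in the WT cultures of batch 3. It had 49.0, 52.2 and 49.3 CPM in the KO cultures and 53.7 CPM in the WT culture of batch 2, and 56.8 CPM in the KO culture and 66.2, 68.0 and 60.4 CPM in the WT cultures of batch 1, and was called higher in batch 3 in both comparisons, at 0.80 and 0.53. Aars, for alanine, had 178 and 163 CPM in the KO and 146 and 152 CPM in the WT cultures of batch 3, all above the 86.9 to 135 CPM of the other 8. It was called higher against batch 2 at 0.48, but not against batch 1. Yars and Tars, for tyrosine and threonine, were called higher in both comparisons and Wars, for tryptophan, only against batch 1. Nars, Lars, Iars and Eprs, for asparagine, leucine, isoleucine and for glutamate with proline, were called higher only against batch 2, by 0.25 to 0.43.

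In batch 2 against batch 1, 7 members were called in total RNA, where 23.5% of all genes were. Nupr1, Ppp1r15a and Slc7a5 were higher and Gadd45a, Asns, Lars and Eprs lower. The median member was at -0.17 and 21 of 33 were below 0. In 3 members all batch 2 cultures lay above batch 1 and in 9 all lay below, where 16.9% of all genes did each.

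Several measures moved with batch 3 beside these genes. Xist, transcribed from the inactive X chromosome of female cells, had 172 to 386 counts in the total RNA libraries of batch 3, 2 to 6 in batch 2 and 2 to 11 in batch 1, while 4 Y-linked genes together had 1 to 2 counts in batch 3, 973 to 1563 in batch 2 and 2300 to 3572 in batch 1. Total RNA reads outside counted features were 4.32% to 5.53% in batch 3, 14.1% to 19.2% in batch 2 and 8.46% to 10.7% in batch 1. Of all genes, 24.5% were called lower and 24.7% higher in batch 3 than in batch 2, and 22.3% lower and 23.0% higher than in batch 1. Of 9 macrophage markers, 9 were called lower in batch 3 than in batch 2 and 7 lower than in batch 1. Of 10 neutrophil markers tested, 5 were higher and 2 lower than in batch 2, and 7 higher and 2 lower than in batch 1. These measures and the batch cannot be told apart.

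Whether the footprints moved with the RNA was compared next. The tests of batch 3 footprints were added after the data were seen, and rest on thin libraries: Atf4 had 21 and 8 footprints in KO5 and KO6 and 20 and 2 in WT5 and WT6. Against batch 2, 12 of 21 members were called and all 12 were higher, where 22.5% of all genes were called and 10.9% were higher. Against batch 1, 10 were called higher and 1, Lars, lower, where 20.8% were called and 9.54% were higher. Without WT5, 7 members were called. Over the fits that each left out 1 culture, 990 to 1591 of all genes were called. Each of the 12 and of the 10 members with more footprints also had its total RNA called higher. Of the 21 members, 18 had total RNA called higher than in batch 2 and 14 than in batch 1, so much overlap was likely. The same overlap over all genes was not taken. Of the 5 tested synthesis genes, 5 were called higher in both comparisons.

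Phgdh had 196 and 141 footprint CPM in KO5 and KO6 and 202 and 82.2 in WT5 and WT6. It had 4.02, 18.1 and 6.44 in KO2 to KO4 and 22.5 in WT4, and 23.2 in KO1 and 21.3, 42.8 and 18.9 in WT1 to WT3. The batch 3 cultures lay above all others, by 3.86 against batch 2 (SE 0.46, adjusted p = 5.28e-05) and 3.15 against batch 1 (SE 0.49, adjusted p = 0.000535). Asns had 228 and 152 footprint CPM in the KO and 169 and 82.2 in the WT cultures of batch 3. It had 23.9, 29.9 and 15.4 in the KO cultures and 37.9 in the WT culture of batch 2, and 44.8 in the KO culture and 39.4, 46.1 and 44.0 in the WT cultures of batch 1, changes of 2.74 (SE 0.27, adjusted p = 5.39e-09) and 2.14 (SE 0.29, adjusted p = 1.65e-06, edgeR). Both genes thus had all batch 3 footprint values above the rest, though WT6 rested on 3 footprints for each.

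Psat1 had 149 and 130 footprint CPM in the KO cultures and 98.6 and 0 in the WT cultures of batch 3, the 0 being WT6, where 3 counts would have been 82.2 CPM. It had 24.4, 31 and 24.9 in the KO cultures and 22.8 in the WT culture of batch 2, and 6.63 in the KO culture and 26.5, 6.59 and 27.2 in the WT cultures of batch 1; it was 4.58-fold higher in batch 3 than in batch 2 and 5.40-fold higher than in batch 1. Atf4 had 97.9 and 86.8 footprint CPM in the KO and 93.9 and 54.8 in the WT cultures of batch 3. It had 18.7, 27.8 and 25.2 in the KO cultures and 31.4 in the WT culture of batch 2, and 33.2 in the KO culture and 32.2, 16.5 and 33.5 in the WT cultures of batch 1. Batch 3 was above the other 8 cultures, by 1.81 against batch 2 (SE 0.29, adjusted p = 2.03e-05) and 1.61 against batch 1 (SE 0.31, adjusted p = 0.000233, edgeR).

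Shmt2, Slc7a1 and Mthfd2 were also called higher in batch 3, at 1.81, 2.01 and 1.20 against batch 2, as were Gars, Sars and Cars, with Aars and Mars against batch 2 alone, the Aars call being lost without KO5 (adjusted p = 0.0827, edgeR). Slc3a2 and Sesn2 footprints did not pass the test. Between batches 2 and 1 only Aars and Mars were called, both at -0.62, where 15.4% of all genes were called and 7.37% were lower. Aars had 134, 155 and 128 footprint CPM in the KO cultures and 186 in the WT culture of batch 2, against 234 in the KO culture and 201, 307 and 224 in the WT cultures of batch 1. Mars had 67.0, 61.9 and 66.1 in the KO cultures and 67.3 in the WT culture of batch 2, against 92.8 in the KO culture and 106, 102 and 102 in the WT cultures of batch 1. Batch 2 lay below batch 1 without overlap in both genes; the Aars call (SE 0.18, adjusted p = 0.0166) was lost without KO1 and the Mars call (SE 0.17, adjusted p = 0.013, edgeR) without WT4.

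**Figure D4:**
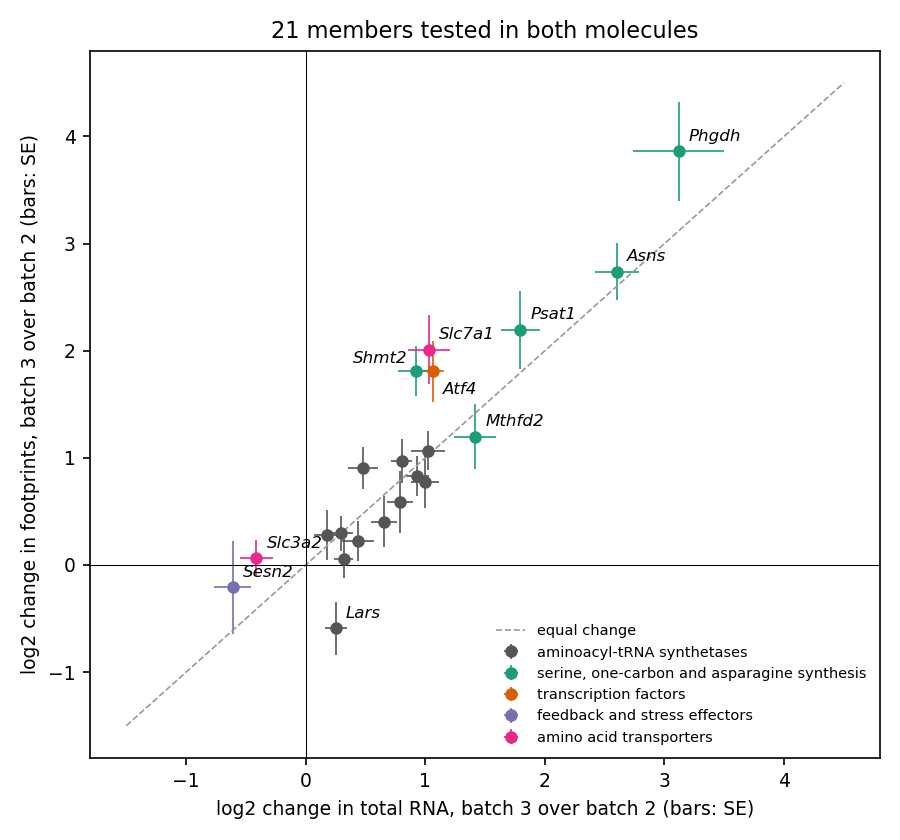
Log2 change of footprints against log2 change of total RNA, batch 3 over batch 2, for the 21 members tested in both, with SE bars and a dashed line of equal change. Phgdh and Asns are at the upper right, 19 of the 21 members have the same sign in both, and Slc3a2 and Lars do not.

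The footprint to RNA ratio itself differed between batches for few members. No member was called for batch 3 against batch 1, where 1.14% of all genes were, or for batch 2 against batch 1, where 16.7% were. For batch 3 against batch 2, 2 were called, where 9.97% of all genes were (4.46% higher, 5.51% lower): Shmt2, higher by 0.86 (SE 0.26, adjusted p = 0.0349), and Lars, at -0.89 (SE 0.24, adjusted p = 0.0195, edgeR). Of 12 fits that each left out 1 culture, the Shmt2 call was lost in 5 (KO2, KO5, WT2, WT4 or WT5 left out) and the Lars call in 4 (KO2, KO4, WT4 or WT5). Atf4 was at 0.70 (SE 0.25, adjusted p = 0.0708) in that comparison and at 0.48 (95% interval -0.07 to 1.03) against batch 1. With the culture as a block, which pairs the 2 libraries of a culture, 4 members were called for batch 3 against batch 2, Slc7a1 and Slc3a2 being added as higher, where 17.5% of all genes were called (8.90% higher, 8.65% lower). It gave 6 for batch 2 against batch 1: Aars, Sesn2, Shmt2, Slc3a2 and Slc7a1 lower and Gars higher, where 31.7% of all genes were called (14.7% higher, 17.0% lower).

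The last comparison set footprints against total RNA across all 12 cultures, as log2 of the ratio relative to the average gene. Footprints were counted in coding sequence and the region of the RNA counts is not given in the sources used here, so a ratio is safer between cultures than between genes. Of 21 members, 15 were called higher and 1 lower, where 71.4% of all genes were called (34.7% higher, 36.7% lower). The 1 was Atf4, at -1.93 (SE 0.09, adjusted p = 6.96e-17), and only 193 of 7203 tested genes, 2.68%, had a lower value. All 12 synthetases were called higher, from 0.24 for Yars to 0.83 for Wars. Slc3a2 was at 1.84 (SE 0.08, adjusted p = 2.28e-17), above 99.2% of tested genes, Shmt2 at 1.22 and Asns at 0.71, while Sesn2, Psat1, Phgdh, Mthfd2 and Slc7a1 were not called. With the culture as a block 16 were also called, Phgdh taking the place of Yars, where 74.3% of all genes were (36.4% higher, 37.9% lower).

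**Figure D5:**
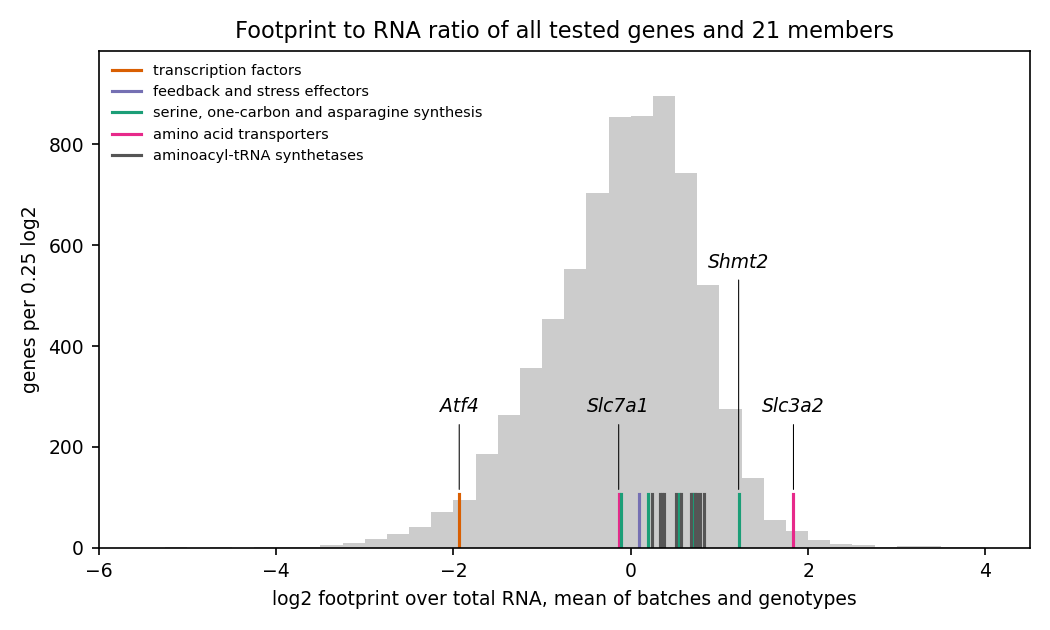
Number of tested genes by log2 ratio of footprints to total RNA, averaged over batches and genotypes, in bins of 0.25, with a coloured mark for each of 21 members by role. Atf4 at -1.93 lies in the lower tail, Slc3a2 at 1.84 in the upper tail, and the synthetases between 0.24 and 0.83.

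Atf4 had a mean ratio of footprint CPM to total RNA CPM of 0.271 ± 0.085 in KO and 0.244 ± 0.075 in WT cultures (SD, n = 6 each). By batch the ratios were 0.332 and 0.392 in the KO and 0.359 and 0.217 in the WT cultures of batch 3, 0.157, 0.222 and 0.226 in the KO cultures and 0.242 in the WT culture of batch 2, and 0.298 in the KO culture and 0.246, 0.130 and 0.271 in the WT cultures of batch 1. All 12 were well under 1. Batch 3 overlapped the other batches only through WT6, whose 0.217 rested on 2 footprints and whose median tested gene was at 0.684. Within each culture, 10.7% to 29.7% of tested genes had a lower ratio than Atf4 in batch 3, against 0.666% to 6.58% in batches 2 and 1. These shares depend on depth, since a tested gene without a footprint counts as lower. WT6 had a footprint count in only 5765 genes, where 7203 were tested, and its share was 29.7%. The share in WT1 was 2.5%, although its Atf4 ratio of 0.246 was higher than that of WT6. How far depth sets these shares was not tested.

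Atf5, Ddit3 and Ppp1r15a, chosen here beside Atf4 for their upstream frames, had few footprints. Their pooled ratio over all 12 cultures is given with an exact Poisson interval on the footprint count, which covers counting error only. Upstream frames of the remaining members were not examined. Atf5 had 29 footprints in all and a pooled ratio of 0.0765 (95% interval 0.0512 to 0.110), and 0.853% of the 10551 genes compared were lower. Ddit3 had 57 and a ratio of 0.0827 (0.0627 to 0.107), with 0.967% of genes lower, and Atf4 by the same measure 457 and 0.169 (0.153 to 0.185), with 3.36% lower. Ppp1r15a had 79 and 0.287 (0.227 to 0.357), with 8.99% lower; the median gene was at 0.850. Summed counts weigh the deeply sequenced footprint libraries most, and RNA of the thin batch 3 libraries lowers the pooled ratio of genes whose RNA was high there: the mean of the 12 culture ratios was 0.258 for Atf4, against 0.169 pooled, and 1.59 for Phgdh, against 0.516 pooled. By culture, Atf5 had 1 and 0 footprints in the KO and 1 and 0 in the WT cultures of batch 3, 2, 0 and 4 in the KO cultures and 12 in the WT culture of batch 2, and 1 in the KO culture and 5, 2 and 1 in the WT cultures of batch 1. Ddit3 had 1 and 0 in the KO and 0 and 0 in the WT cultures of batch 3, 8, 1 and 14 in the KO cultures and 17 in the WT culture of batch 2, and 0 in the KO culture and 8, 1 and 7 in the WT cultures of batch 1. Ppp1r15a had none in batch 3, 6, 5 and 18 in the KO cultures and 26 in the WT culture of batch 2, and 5 in the KO culture and 9, 2 and 8 in the WT cultures of batch 1. These 3 genes were left out of the footprint tests by the filter on low counts. The size of change that could be seen at the depth of batch 3 was not tested.

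Genes around the pathway were read from the same fits, in which 34.7% of all genes were higher and 36.7% lower in footprints relative to RNA. In total RNA of batch 3, 24.7% of all genes were higher and 24.5% lower than in batch 2, and 23.0% higher and 22.3% lower than in batch 1. Of 7 tested mRNAs outside the members known for upstream frames, 7 were called lower in footprints relative to RNA, with a median of -1.24; Odc1, of polyamine synthesis, at -2.05 and Ppp1r15b, the constitutive eIF2 phosphatase subunit, at -1.79 were the lowest. Of 10 remaining cytosolic synthetases and their scaffold proteins, 9 were called higher in that ratio. In total RNA, 8 of 11 of these were called higher in batch 3 than in batch 2 and 8 of 11 than in batch 1, none lower, with Eef1e1 at 1.06 and 0.70. Of 17 mitochondrial synthetases, 6 were higher than in batch 2, and 2 higher and 2 lower than in batch 1.

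Further targets of ATF4 and CHOP were mixed: of 27 tested, 9 were called higher and 6 lower in batch 3 than in batch 2 (24.7% and 24.5% of all genes), and 11 higher and 5 lower than in batch 1 (23.0% and 22.3%). Slc1a4, a neutral amino acid transporter that carries serine, was at 1.71 (SE 0.33) and 1.32 (SE 0.31), and Aldh18a1, of proline synthesis, at 1.16 against batch 2. Vegfa, the angiogenic growth factor, was at -2.06 (SE 0.12) and -2.56 (SE 0.12). Of 16 genes for eIF2 kinases, eIF2, eIF2B and phosphatase subunits, 6 were higher and 2 lower than in batch 2, and 5 higher and 1 lower than in batch 1. Eif2s3x, an X-linked eIF2 subunit, was at 0.95 and 0.94, in the batch that carried Xist, and batch and X-linked dosage cannot be told apart. Of 13 genes of amino acid sensing to TORC1, 4 were lower and 1 higher in each comparison, with Sesn1 at -0.89 and -1.38 and Sesn3 at -1.18 and -1.16. Between KO and WT cultures none of the genes in these lists was called in total RNA, footprints or the ratio.

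The letters TGATGNAA occurred in 6 of 15 members with a window that were higher than in both other batches and in 5 of 14 other members, among them Nupr1 and Vldlr. In the authors' deposited table over all genes, the lowest adjusted p among the 34 members was 1.0, with an unadjusted p under 0.05 for Atf5 (0.0343) and Ddit3 (0.0434). In the authors' deposited table over the top 25 percent of genes, which held 23 of them, it was 0.563, and the unadjusted p was 0.0301 for Atf5 and 0.0376 for Ddit3.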

How the data were processed

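Per the labels, total RNA and ribosome footprints of 12 macrophage cultures were turned into libraries with a kit for ribosome profiling. The authors deposited raw counts of reads per gene symbol for each of the 24 libraries; per the file names, footprint counts are of coding sequence, and symbols without a line there were set to 0. The submitters' processing notes name the build mm10 and, without roles, DESeq, DESeq2, Cufflinks 2.2.1, HTSeq, TopHat2 2.1.0, Bowtie 1.1.2 and Trim Galore; neither strand and annotation nor the handling of multi-mapping reads is described in the sources used here. The authors also deposited 2 tables of results. Per the file headers they hold the mean of normalized counts (a signal), the log2 fold change with its error, the test statistic (a score) and the p-value before and after adjustment. The direction of that fold change is not stated, so only p-values are printed from them.

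The 5 summary lines of HTSeq entered neither library sizes nor tests. Reads outside features were 3.97% to 9.47% of footprint and 4.32% to 19.2% of total RNA files, and reads with several alignments 45.6% to 80.1% and 27.8% to 51.2%. The quasi-likelihood test was that of edgeR 4.0.16 in R 4.3.3, robust, after TMM scaling and a filter (filterByExpr by genotype, minimum count 10). The model held genotype and batch, and p-values were Benjamini-Hochberg adjusted over all genes, with a threshold of 0.05. Each molecule was fitted alone, and the footprint to RNA ratio in a model of all 24 libraries with molecule interactions. The code was checked on simulated data. The 2 libraries of a culture come from the same cells, and their deviations from genotype and batch correlated at 0.00547 to 0.559, so a fit with the culture as a block was also made. Intervals on counts cover counting error only, since the files count reads and not molecules. No 2 libraries had identical counts. Alternatives were DESeq2 1.42.0, RLE scaling, other filters and left-out cultures or batches.

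Values in every culture are given for Atf4, Atf5, Ddit3, Ppp1r15a and the 3 members with the largest change per batch comparison among those called, with Slc7a11 and some further values added after they were seen. Genes of other lists are named when called, at most the 2 largest in each direction. The members and lists were chosen with earlier results of these data known.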

Additional observations from a re-analysis of the deposited data

Results flagged for a closer look

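Each member's CPM was checked in the 6 KO and in the 6 WT cultures for a culture whose gap to its nearest neighbour, over the whole range, exceeded Dixon's 95% critical value. Of 108 groups, 15 held such a culture, where chance flags about 1 in 20 groups of exchangeable cultures. These cultures are not exchangeable, since they come from 3 batches in which many members differed, with WT4 the only WT culture of batch 2 and KO1 the only KO culture of batch 1.

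In total RNA, WT4 of batch 2 stood above the other WT cultures in 3 genes: Slc7a11 at 157 CPM, the nearest being at 30.9, Atf5 at 51.2 CPM, the nearest at 22.8, and Nupr1 at 23.2 CPM, the nearest at 8.01. WT6 was high for Slc7a1 at 69.8 CPM, and KO1 for Vldlr at 10.9 CPM.

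In footprints, WT5 of batch 3 stood above the other WT cultures in 7 genes: Asns at 169 CPM, Psat1 at 98.6, Phgdh at 202, Shmt2 at 155, Mthfd2 at 131, Slc7a1 at 113 and Gars at 314 CPM. KO5 of batch 3 was likewise high for Gars at 331 CPM. These are genes whose total RNA was higher in batch 3, and WT5 is 1 of the 2 WT cultures in it, the other being WT6 with the thinnest footprint library. WT6 was low for Sesn2, with 0 footprints, where 3 counts would be 82.2 CPM, and WT4 was low for Mars at 67.3 CPM, the nearest being at 102.

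Between groups, the KO over WT change of Atf5 total RNA differed among batches, with an adjusted p of 0.00898 for the interaction (edgeR). The KO minus WT difference of mean log2 CPM was 0.21 in batch 3, -1.53 in batch 2 and 0.24 in batch 1, and batch 2 rests on WT4.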

How the results depend on the processing

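The number of members called was compared across RLE scaling, no filter on low counts, a minimum count of 30, DESeq2, a replicate block, left-out cultures and, for genotype, no batch term and left-out batches. No member was called between KO and WT except without the cultures whose footprint library held under 1000000 counts: 14 in total RNA and 8 in footprints, where 2740 and 1413 of all genes were called from 4 cultures (KO2, KO4, WT1 and WT4) with 1 culture alone in its batch; batch 2 against batch 1 then gave 14 in total RNA, and batch 3 could not be fitted. WT1 was the only batch 1 culture in that fit, so KO against WT there rested on KO2 and KO4 against WT4 alone. Genotype and the single culture WT4 cannot be told apart in it, so its KO against WT calls are not read as a genotype difference. Its batch 2 against batch 1 calls rested on WT1 alone for batch 1. Leaving out single cultures gave 21 to 24 calls in batch 3 against batch 1 and 25 to 28 against batch 2 in total RNA. Over all genes, the same fits gave 4252 to 5279 and 4189 to 5401 calls. In footprints, batch 2 against batch 1 gave 5 without the filter and 1 to 4 without single cultures. Batch 3 against batch 1 gave 7 at a minimum count of 30 and 7 to 11 without single cultures. Over all genes, leaving out single cultures gave 597 to 1193 and 990 to 1591 calls in the same order. For the ratio, batch 2 against batch 1 gave 1 with DESeq2, 6 with the replicate block and 0 to 1 without single cultures. Batch 3 against batch 2 gave 1 without the filter, 4 with the replicate block and 0 to 2 without single cultures. Over all genes, leaving out single cultures gave 412 to 1477 and 298 to 762 calls in the same order. The uncalled KO over WT change of Atf4 turned positive in footprints without WT4 (0.11) or batch 2 (0.10) and in the ratio without KO2 (0.01), WT4 (0.18) or batch 2 (0.19); over all left-out cultures it ranged from -0.30 to 0.11 in footprints and from -0.25 to 0.18 in the ratio. The cause of these shifts was not tested.

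Over all genes, the KO against WT count of 2 in total RNA ranged from 0 to 10 and that of 6 in footprints from 1 (among others with the replicate block) to 269 (without KO1), apart from the 4-culture fit. With the culture as the replicate block, the ratio gave 2284 calls in place of 1201 for batch 2 against batch 1, 193 in place of 82 for batch 3 against batch 1 and 1264 in place of 718 for batch 3 against batch 2. At a minimum count of 30, 3234 genes in place of 5140 were called for footprints against RNA. For genotype, same-numbered KO and WT libraries did not qualify as pairs: their correlations were 0.0744 to 0.868 in total RNA and 0.0733 to 0.328 in footprints, and 2 of 6 KO libraries correlated best with their own number. With that number as a replicate block in place of batch, 0 members were called. Footprint depth limits batch 3, where WT6 had 3 or fewer footprints for Atf4, Asns, Phgdh and Psat1.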

Other observations

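Around the members, Cebpg, a binding partner of ATF4, had few footprints for its RNA, at -2.07 on the log2 scale relative to the average gene (SE 0.15, adjusted p = 7.7e-13, edgeR), close to the -1.93 of Atf4. Eif2ak4, which encodes the kinase GCN2, was at -0.94. Among genes of amino acid sensing, the TORC1 activators Rraga and Rragc lay on opposite sides, at 1.59 and -0.88. Of 21 further ATF4 and CHOP targets tested in footprints, 7 were called higher and 2 lower in batch 3 than in batch 2 (10.9% and 11.7% of all genes), and 5 higher and 2 lower than in batch 1 (9.54% and 11.2%). Gdf15, a stress-induced cytokine, was at 2.78 (SE 0.64) and 2.32 (SE 0.68), and Aldh18a1 at 1.39 (SE 0.34) and 1.65 (SE 0.37). Sesn1 footprints were lower in batch 3, at -0.91 against batch 2 and -1.16 against batch 1, as its total RNA was.

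In batch 2 against batch 1, total RNA of the polyamine genes Odc1 and Azin1, which have upstream frames, was lower, at -0.87 and -0.79. Azin1 encodes the antizyme inhibitor. Impact, an inhibitor of GCN2 activation, was at -0.72 and Eif2s1, the phosphorylated eIF2 subunit, at -0.51, while Eif4ebp1, a translational repressor and ATF4 target, was at 0.75.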
